A study of Mus musculus with 22 samples.

Results

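DNA methylation writers and erasers are the 9 mouse genes Dnmt1, Dnmt3a, Dnmt3b, Dnmt3l, Uhrf1, Uhrf2, Tet1, Tet2 and Tet3, chosen by exact match of the gene symbol. All 9 were found among the 34866 genes of the culture tables and among the 23911 genes of the cartilage table. The rule reads the symbol alone, but the genes were proposed with earlier results of these data known. Messenger RNA had been sequenced in 22 samples, from mice or cells with a floxed Dnmt1 gene and no recombinase named (labelled "Dnmt1 flox" in cultures and "flox" in cartilage, here control), or with Prrx1-Cre and Dnmt1 flox/flox (here cKO, a conditional knockout). Control and cKO cells thus both carried a floxed Dnmt1 allele. Primary chondrocytes of knee articular cartilage, from mice at postnatal days 3 to 5, were sampled untreated (day 0, 3 control and 3 cKO samples) or after 3 days with bone morphogenetic protein 2 (BMP2, labelled as 100 ng/µl; day 3, 4 control and 4 cKO samples). Cartilage of mice at postnatal day 5, digested with collagenase, gave 4 control and 4 cKO samples, with 2 males (replicates 1 and 2) and 2 females (replicates 3 and 4) in either genotype.

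In mammalian DNA, methyl groups sit mainly on cytosines that are followed by guanine (CpG). Dnmt1 copies the pattern onto the new strand after replication and is brought to half-methylated sites by Uhrf1. Dnmt3a and Dnmt3b set new methyl groups, helped in germ cells and early embryos by Dnmt3l, which has no catalytic activity of its own, while Tet1, Tet2 and Tet3 oxidise methylcytosine as the first step of its removal. The Prrx1 enhancer drives Cre in limb bud mesenchyme, from which limb chondrocytes, fibroblasts and bone cells come, so cells of other origins in the samples would keep Dnmt1. BMP2 is a growth factor that promotes cartilage formation and chondrocyte maturation.

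Library totals were 41749327 to 51741478 at day 0, 14434197 to 18918714 at day 3 and 1100198 to 1888896 in cartilage. Levels are given as CPM (library-scaled counts, with TMM factors), on a single scale for the 14 cultures and another for the 8 cartilage libraries. A floor of 3 counts per library, which covers counting error only, equalled 0.058 to 0.0719 CPM in day 0, 0.159 to 0.208 CPM in day 3 and 1.59 to 2.73 CPM in cartilage libraries. All 11 chondrocyte markers of the fixed list, among them Col2a1, Acan and Sox9, passed the expression filter in cultures and cartilage. Their summed level was 149800 to 158300 CPM in control and 54320 to 65970 CPM in cKO cultures at day 0, and 97590 to 119300 CPM in control against 1677 to 17790 CPM in cKO cultures at day 3. The cKO library of replicate 4 at day 3 stood apart: it held the 1677 CPM, the lowest summed level of the muscle list in its group (157.6 CPM, against 1246 to 2107 CPM in the other 3) and the highest of the osteoclast list (358.8 CPM, against 96.58 to 114.4 CPM). Muscle markers, 9 of 11 of which passed the filter in cultures, summed to 1.58 to 2.1 CPM in the day 3 controls, where Myf5, Chrng and Pax7 had no count. At day 0 they summed to 12.73 to 14.14 CPM in control (Myod1, Myf5 and Pax7 without a count) and 74.09 to 79.03 CPM in cKO (Myl1, Chrng and Pax7 without). Fibroblast and tendon markers summed to 2787 to 4368 CPM in control and 2139 to 2331 CPM in cKO cultures at day 0. At day 3 they summed to 6241 to 7885 CPM in control and 8680 to 9936 CPM in cKO cultures. In cartilage the chondrocyte list summed to 71360 to 106200 CPM in control and 34880 to 65570 CPM in cKO libraries. There the osteoclast list, with 3 of 8 markers past the filter, summed to 126.1 to 458.2 CPM in control and 59.62 to 118.6 CPM in cKO libraries. Of the other lists in cartilage, fibroblast and tendon markers (7 of 7 past the filter) summed to 32760 to 63100 CPM in control and 17820 to 39450 CPM in cKO. Erythroid markers (4 of 6 past it) summed to 165.9 to 915.9 CPM in control and 13.43 to 388.9 CPM in cKO, where Alas2 had no count. Muscle markers (2 of 11 past it) summed to 12.8 to 16.5 CPM in control, where Myh3 had no count, and 57.98 to 90.96 CPM in cKO, where Myog and Myf5 had none. The part of these differences between samples in the results below was not tested. In bulk samples, fewer cells of a type and less RNA per cell cannot be told apart.

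The 9 genes lie on 8 chromosomes of the build GRCm38. By GENCODE M21, Dnmt1 spans chr9:20907209-20959888 on the minus strand, Uhrf1 chr17:56303321-56323486 and Uhrf2 chr19:30030513-30093722 on the plus strand. Dnmt3a spans chr12:3806007-3914443, Dnmt3b chr2:153649450-153687730 and Dnmt3l chr10:78041947-78063622, all on the plus strand. Tet1 spans chr10:62804570-62908996, Tet2 chr3:133463679-133545139 and Tet3 chr6:83362373-83459084, all on the minus strand. Exons of Dnmt3l shared 67 bases with the antisense gene Aire, which is 2.24% of its exon bases, and Dnmt3a shared 133 bases with Dnmt3aos. Whether counting used the strand is not given in the sources used here, so reads in those bases could belong to either gene.

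RefSeq promoter windows of 300 bases on GRCm38.p6, from 250 bases before to 50 after a transcription start, were at hand for all 9 genes (16 windows in all). They are shown for Dnmt3l and Tet1, whose fitted genotype effects were the largest of the 9 at day 3, and for Tet2, which passed the test in none of the 3 genotype comparisons. Capitals mark each CpG, the dinucleotide these enzymes act on. The windows run in the direction of the gene: chr10:78042037-78042336 on the plus strand for the most upstream of 3 Dnmt3l windows, chr10:62887275-62887574 on the minus strand for Tet1 and chr3:133544341-133544640 on the minus strand for Tet2.
Dnmt3l: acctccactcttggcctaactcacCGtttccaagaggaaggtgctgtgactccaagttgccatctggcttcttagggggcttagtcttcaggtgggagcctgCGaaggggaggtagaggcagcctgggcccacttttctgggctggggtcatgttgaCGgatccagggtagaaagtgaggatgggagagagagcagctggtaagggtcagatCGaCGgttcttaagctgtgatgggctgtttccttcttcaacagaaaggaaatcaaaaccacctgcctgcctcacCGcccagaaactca
Tet1: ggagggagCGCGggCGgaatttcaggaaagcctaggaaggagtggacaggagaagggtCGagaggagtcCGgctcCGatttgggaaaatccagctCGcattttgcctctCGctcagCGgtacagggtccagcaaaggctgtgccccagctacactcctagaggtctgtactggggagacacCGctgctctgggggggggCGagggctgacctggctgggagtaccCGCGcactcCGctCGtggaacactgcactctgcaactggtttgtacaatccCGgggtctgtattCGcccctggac
Tet2: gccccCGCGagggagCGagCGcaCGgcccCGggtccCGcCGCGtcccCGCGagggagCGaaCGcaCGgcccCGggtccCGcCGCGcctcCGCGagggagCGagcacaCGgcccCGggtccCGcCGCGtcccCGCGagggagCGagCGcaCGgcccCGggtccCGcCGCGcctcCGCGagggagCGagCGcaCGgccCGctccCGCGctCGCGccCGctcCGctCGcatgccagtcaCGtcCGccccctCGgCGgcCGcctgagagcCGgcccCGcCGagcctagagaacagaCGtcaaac

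The Dnmt3l window held 6 CpG, and the other Dnmt3l windows held 4 and 3. The Tet1 window held 17 and the Tet2 window 57. The Tet1 window, the only 1 at hand for that gene, lies well inside its GENCODE span, downstream of the 5′ end at chr10:62908996. Over all 32851 windows of this length the median was 7, and 56.4% held at least 6, 31.4% at least 17 and 0.2% at least 57. The other windows ran from 2 CpG in the most upstream of 3 Dnmt1 windows to 47 in a Dnmt3a window. The letters TTCCCGC, a core of E2F binding sites, searched on both strands, were present in the more upstream Uhrf1 window and in none of the other 15, against 4.6% of all windows. The letters CACGTG, the palindromic E-box, were present in a Dnmt3a and a Dnmt3l window, against 7.15% of all windows. These are matches of letters and no measure of binding or methylation.

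To compare genes with each other, CPM was divided by the kilobases of joined exons, in the cultures only. In control cells at day 0 the order was Dnmt1 with 21.4 ± 0.933 CPM per kb (SD, n = 3), Uhrf1 with 10.2 ± 0.813, Uhrf2 with 6.68 ± 0.0983, Dnmt3a with 5.82 ± 0.324, Tet3 with 5.36 ± 0.0774, Tet2 with 1.53 ± 0.0791, Dnmt3b with 1.17 ± 0.119, Tet1 with 0.673 ± 0.0865 and Dnmt3l with 0.164 ± 0.016. The ranges of Dnmt3a and Tet3 overlapped and no other neighbours did. In cKO cells at day 0 Uhrf1 stood first with 18.6 ± 0.902 CPM per kb, and Dnmt1 came after Uhrf2 and Dnmt3a with 3.93 ± 0.443, where its range overlapped that of Tet3, as did those of Tet1 and Dnmt3l with each other. At day 3 the control order was led by Dnmt1 with 9.35 ± 1.16 CPM per kb (n = 4), and Tet1 with 1.54 ± 0.311 stood beside Tet2 with 1.53 ± 0.221, with overlapping ranges. Among the day 3 cKO cells Uhrf2 led with 7.15 ± 0.299 CPM per kb, Dnmt3l with 0.738 ± 0.151 lay above Dnmt3b with 0.36 ± 0.12, and Tet1 was last with 0.186 ± 0.0595. Uhrf1, Dnmt1 and Dnmt3a lay next to each other there with overlapping ranges, and so did Dnmt3b and Tet1. Divided by the longest transcript instead, the order changed in places: Uhrf2 moved ahead of Dnmt1 in day 3 controls and ahead of Uhrf1 in day 0 controls.

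**Figure D1:**
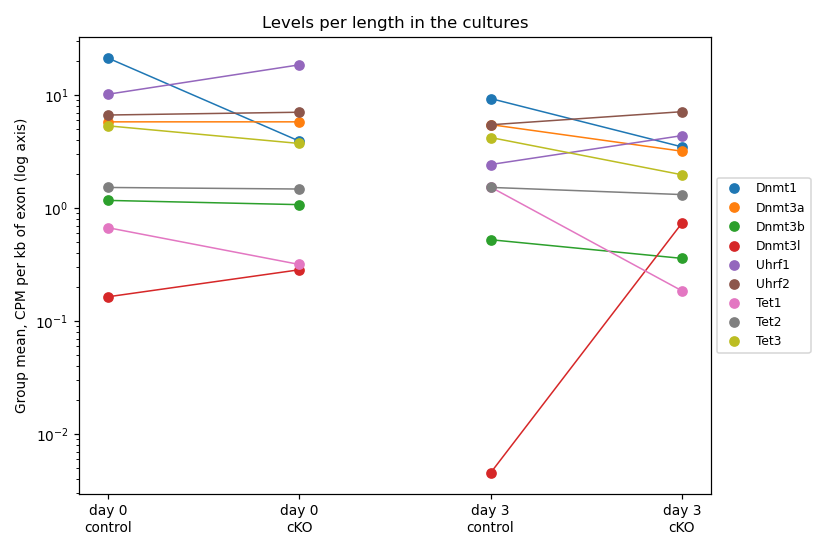
Mean level of each gene in CPM per kilobase of exon (log axis) in the 4 culture groups, with lines joining control and cKO of the same day. Dnmt1 is first in both control groups, Tet1 and Dnmt3l change places between control and cKO at day 3, and Tet2 lies between 1.32 and 1.53 in all 4 groups.

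The first question was how these genes differed between cKO and control samples in each setting. Called means an adjusted p below 0.05 (edgeR's quasi-likelihood test, Benjamini-Hochberg over all genes tested). At day 0 all 9 genes passed the expression filter: 2 were called higher in cKO, where 33.0% of the 15530 genes tested were, and 3 lower, where 31.6% were. At day 3 all 9 passed it: 2 were called higher (25.5% of 13924 genes tested) and 4 lower (22.6%). Without the cKO library of replicate 4, 7 were called, with Uhrf1 added. Dnmt3l passed the day 3 filter through its cKO counts alone. In cartilage 6 of the 9 passed. There none was called higher (3.15% of 8793 genes), by edgeR or DESeq2, and none beside Dnmt1 had an unadjusted p under 0.05. Dnmt1 was called lower (3.04%). The counts at day 0 lie near the shares of all genes, and the 4 called lower at day 3 include the targeted gene.

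**Figure D2:**
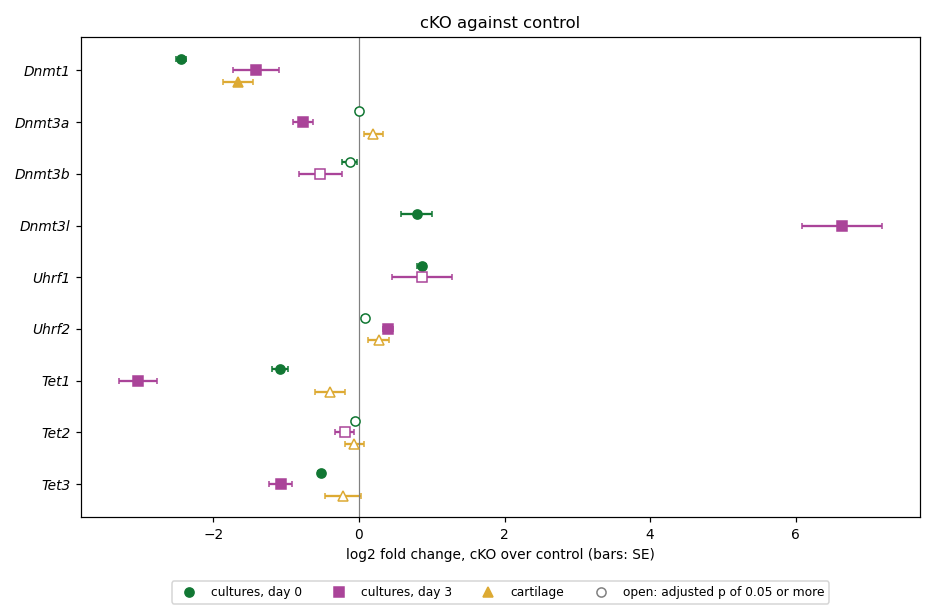
Log2 fold change of cKO over control with its standard error for each gene at day 0, at day 3 and in cartilage, where filled symbols passed an adjusted p of 0.05 and Dnmt3b, Dnmt3l and Uhrf1 were not tested in cartilage. Dnmt1 lies left of 0 in all 3 settings and Dnmt3l at day 3 lies farthest right, at 6.63.

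Dnmt1, the maintenance methyltransferase and the targeted gene, was lower in cKO in every setting. At day 0 the 3 control libraries held 166, 153 and 154 CPM and the 3 cKO libraries 27.4, 26.8 and 32.8 CPM. The groups did not overlap, and the log2 fold change was −2.44 (SE 0.0718, adjusted p 1.62e-08), a 5.44-fold lower level. After BMP2 the controls held 81.5, 63.3, 63.9 and 67.3 CPM and the cKO libraries 34.3, 35.6, 22.2 and 10.9 CPM, with the lowest in replicate 4, and the log2 fold change was −1.41 (SE 0.314, adjusted p 0.00625). In cartilage the controls held 45.8, 41.0, 48.6 and 34.5 CPM and the cKO libraries 11.8, 13.1, 14.3 and 13.8 CPM, a log2 fold change of −1.66 (SE 0.201, adjusted p 6.34e-05). Control cartilage was sequenced in pool 1 and cKO cartilage in pool 2, so that pool and genotype cannot be told apart. The authors' second cartilage table, of estimated counts, gave 44.1 to 62.5 CPM in control and 26.5 to 33.4 CPM in cKO, without overlap and with a smaller log2 fold change of −0.78 (adjusted p 0.0108). Cartilage reads came from 3′ ends and the labels do not name the deleted exons, so these values describe transcript level and do not check the deletion. Transcript left in cKO samples from cells that kept the gene, and transcript of the recombined allele, cannot be told apart.

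Dnmt1 also differed with day. From day 0 to day 3 it fell in control cells by 1.19 on the log2 scale (SE 0.274, adjusted p 0.00229), from 158 ± 6.88 to 69.0 ± 8.53 CPM (SD, n = 3 and 4). In cKO cells it went from 29.0 ± 3.26 to 25.8 ± 11.6 CPM, and the log2 change of −0.17 (95% interval −0.78 to 0.44) was not called (adjusted p 0.62). The interaction of genotype and day, which is the day 3 genotype effect less the day 0 effect, was 1.02 for Dnmt1 (SE 0.394, adjusted p 0.0968), and 1.28 (adjusted p 0.000393) without the cKO library of replicate 4 at day 3.

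Uhrf1, which reads half-methylated CpG and recruits Dnmt1, was higher in the cKO cells at day 0 and lower at day 3 in both genotypes. At day 0 it stood at 47.0, 43.1 and 40.2 CPM in control and 83.0, 75.3 and 79.0 CPM in cKO, without overlap (log2 fold change 0.86, SE 0.0611, adjusted p 2.7e-06). In a fit of all 14 cultures, which pools the spread of both days, the same log2 fold change of 0.86 had an adjusted p of 0.0705. Day 3 controls held 15.4, 8.04, 9.07 and 9.03 CPM and the cKO libraries 19.0, 23.4, 26.4 and 5.94 CPM. Of the 4 cKO libraries 3 lay above all controls and replicate 4 lay below them. The log2 fold change of 0.86 (95% interval −0.07 to 1.8) was not called (adjusted p 0.115), and it was 1.15 (adjusted p 0.00133) without cKO replicate 4. With all 14 cultures fitted, the day 3 effect was 0.86 with an adjusted p of 0.0452.

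From day 0 to day 3 Uhrf1 fell by 2.07 on the log2 scale in control (SE 0.355, adjusted p 0.000275) and fell by 2.08 in cKO (SE 0.344, adjusted p 0.000186). The interaction was −0.01 (95% interval −1.12 to 1.11), an interval too wide to show that the falls were alike. In the cartilage libraries Uhrf1 had 1.5 to 9.39 CPM in control and 2.52 to 5.35 CPM in cKO, near the floor, and did not pass the filter. The table of estimated counts gave it 6.33 to 15.9 CPM in control and 7.9 to 16.4 CPM in cKO, with overlapping groups, above that table's floor of 1.01 to 1.74 CPM.

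Uhrf2, the paralog of Uhrf1, moved less. At day 0 it stood at 58.4, 57.1 and 56.8 CPM in control and 60.3, 60.9 and 61.1 CPM in cKO, and the log2 fold change of 0.08 (95% interval 0 to 0.15) was not called (adjusted p 0.0631). With libraries scaled by their totals alone, which moved the median of all genes at day 0 from 0.01 to 0.12, it was 0.19 and called (adjusted p 0.000916). Day 3 controls held 45.8, 44.7, 51.0 and 46.7 CPM and the cKO libraries 62.8, 63.7, 57.9 and 61.4 CPM, without overlap (log2 fold change 0.40, SE 0.0663, adjusted p 0.00145). Uhrf2 fell with day in control cells by 0.29 on the log2 scale (adjusted p 0.000542), and its change in cKO cells was 0.02 (95% interval −0.1 to 0.13, adjusted p 0.816). The interaction of 0.30 (SE 0.0762) was called (adjusted p 0.0174), though not without day 0 control replicate 1 (adjusted p 0.0501) or with totals alone (adjusted p 0.0638).

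**Figure D3:**
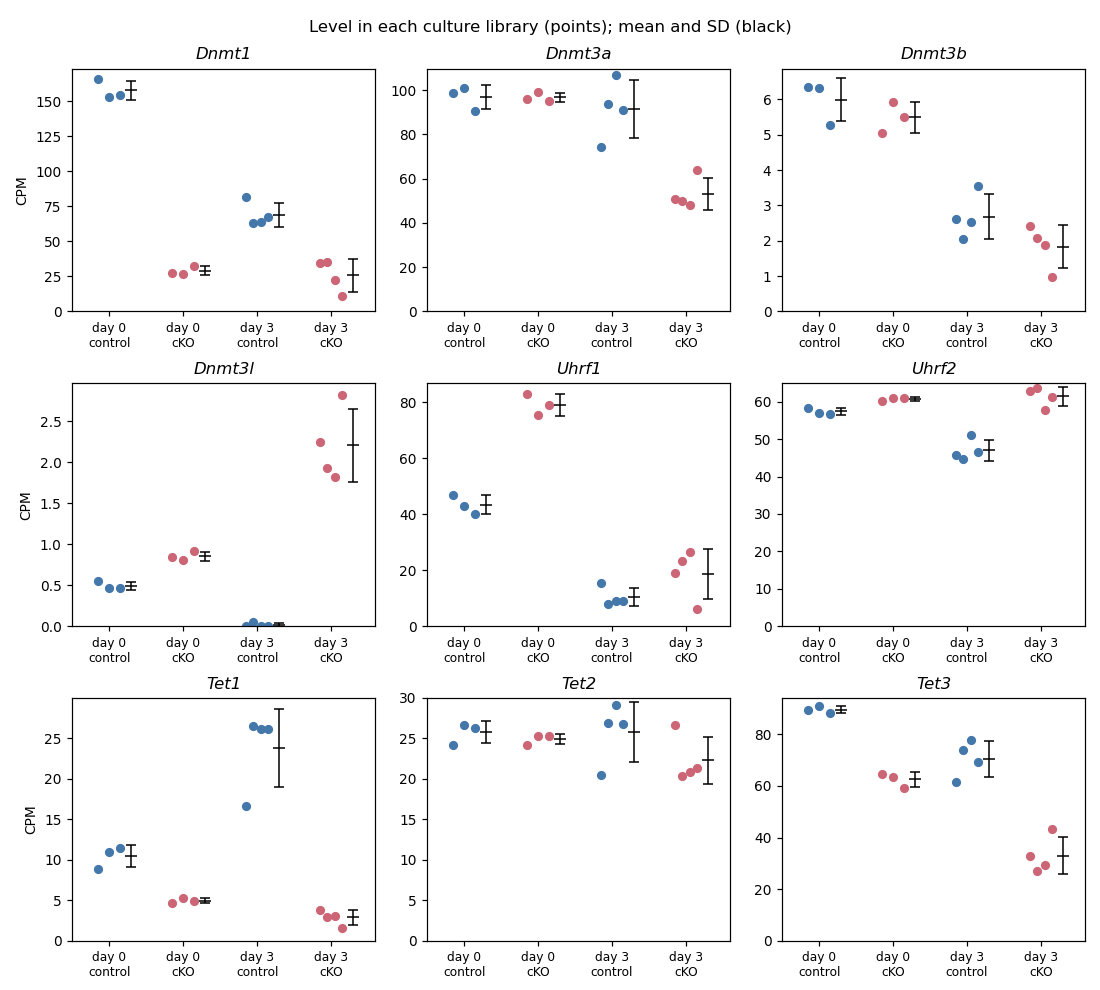
CPM of each gene in every culture library (points, blue for control and red for cKO) with the group mean and SD in black, in 1 panel per gene with axes starting at 0. Tet1 rises from day 0 to day 3 in control and falls in cKO, Dnmt3l does the reverse, and Uhrf1 and Dnmt3b are lower at day 3 in both genotypes.

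Of the de novo enzymes, Dnmt3a was lower in cKO cells at day 3 and Dnmt3b was not called in either culture. At day 0 Dnmt3a held 98.9, 101 and 90.7 CPM in control and 96.1, 99.1 and 95.2 CPM in cKO, with overlapping groups, and the log2 fold change was 0.00 to 2 decimals (95% interval −0.1 to 0.09, adjusted p 0.953). After BMP2 the controls held 74.4, 93.9, 107 and 90.9 CPM and the cKO libraries 50.8, 49.8, 48.1 and 64.1 CPM, without overlap, a log2 fold change of −0.76 (SE 0.137, adjusted p 0.00209). With day, Dnmt3a fell in cKO cells by 0.86 on the log2 scale (SE 0.114, adjusted p 2.94e-05), while the change in control cells was −0.08 (95% interval −0.33 to 0.17, adjusted p 0.574). The interaction of −0.78 (SE 0.162, adjusted p 0.00625) was called.

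Dnmt3b, the second de novo enzyme, held 6.36, 6.32 and 5.29 CPM in control and 5.05, 5.93 and 5.51 CPM in cKO at day 0. At day 3 it held 2.6, 2.06, 2.52 and 3.56 CPM in control and 2.42, 2.07, 1.88 and 0.98 CPM in cKO. The genotypes overlapped on both days, and the log2 fold changes were −0.13 (95% interval −0.37 to 0.12) and −0.53 (95% interval −1.2 to 0.14), with adjusted p of 0.323 and 0.167. With day it fell by 1.16 in control (adjusted p 0.001) and by 1.57 in cKO (adjusted p 9.66e-05), both on the log2 scale.

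Dnmt3l, the catalytically inactive cofactor of Dnmt3a and Dnmt3b, was the least abundant of the 9 in control cells, and it showed the widest difference between genotypes at day 3. At day 0 it had 25, 22 and 20 counts in control (0.546, 0.465 and 0.462 CPM) and 35, 35 and 47 counts in cKO (0.841, 0.804 and 0.912 CPM), without overlap (log2 fold change 0.79, SE 0.212, adjusted p 0.00928). Day 3 controls had 0, 1, 0 and 0 counts, all at or under the floor, and the cKO libraries 40, 39, 35 and 49 counts, or 2.25, 1.93, 1.83 and 2.82 CPM. The summed counts of 163 in cKO and 1 in control gave a ratio of 149 per library total, with an exact 95% counting interval of 26.3 to 5905 that covers counting error only. The fitted log2 fold change of 6.63 (adjusted p 4.49e-05) depends on the prior count.

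With day, Dnmt3l fell in control (adjusted p 1.4e-05), where the ratio of day 0 to day 3 counts per library total was 29.2 (exact 95% counting interval 5.07 to 1171). It rose in cKO by 1.36 on the log2 scale (SE 0.263, adjusted p 0.000594). Its interaction was called (adjusted p 9.16e-05). Among the 10 germ cell markers of the fixed list, such as Dazl, Ddx4 and Tex19.1, 9 passed the filter in cultures. Their summed level was 0.782 to 0.83 CPM in control and 169.5 to 193 CPM in cKO at day 0, and 0.543 to 1.16 CPM in control and 183.5 to 202.3 CPM in cKO at day 3. Sycp1, Mael, Tex101 and Mov10l1 had no count in any day 3 control. In cartilage Dnmt3l had 2 counts in cKO replicate 2 and 0 in the other 7 libraries, so that both groups lay at or under the floor. The germ cell list there, with 4 of 10 past the filter, summed to 0 to 2.75 CPM in control and 161.1 to 197.7 CPM in cKO, and 8 of its markers had no count in control. The relation of these markers to Dnmt3l was not tested.

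Tet1 was the eraser with the largest genotype effect in culture. At day 0 it stood at 8.89, 10.9 and 11.4 CPM in control and 4.59, 5.21 and 4.95 CPM in cKO, without overlap (log2 fold change −1.08, SE 0.11, adjusted p 2.56e-05). At day 3 the controls held 16.6, 26.4, 26.1 and 26.1 CPM and the cKO libraries 3.82, 2.96, 3.08 and 1.61 CPM. The lowest control, replicate 1, lay above every cKO library, and the log2 fold change was −3.03 (SE 0.259, adjusted p 5.03e-05), an 8.2-fold lower level. With day, Tet1 rose in control by 1.19 on the log2 scale (SE 0.217, adjusted p 0.000424) and fell in cKO by 0.77 (SE 0.23, adjusted p 0.0103). The interaction was −1.97 (SE 0.315, adjusted p 0.00141), and all 20 alternative fits called it, with values from −2.15 to −1.78.

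Tet3, the paralog without which the zygote fails to oxidise its paternal genome, was lower in cKO on both days. At day 0 it held 89.3, 91.0 and 88.4 CPM in control and 64.8, 63.6 and 59.1 CPM in cKO (log2 fold change −0.52, SE 0.0406, adjusted p 4.81e-06). At day 3 it held 61.4, 73.8, 77.8 and 69.4 CPM in control and 32.7, 26.9, 29.4 and 43.1 CPM in cKO (log2 fold change −1.08, SE 0.159, adjusted p 0.00079). The genotypes did not overlap on either day. With day it fell in cKO by 0.92 on the log2 scale (SE 0.129, adjusted p 4.88e-05). In control it fell by 0.34 (adjusted p 0.0353), a call lost in 8 of 21 alternative fits: with totals alone, with the most abundant genes left out, and without any of the day 0 controls or of day 3 control replicates 1, 2 and 4 (adjusted p up to 0.124). The interaction of −0.58 (adjusted p 0.0469) was lost in 15 of 20, among them each fit that left out a library other than day 3 control replicate 1 and day 3 cKO replicate 4 (adjusted p up to 0.101).

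Tet2, best known as a gene mutated in blood cancers, held 24.2, 26.7 and 26.3 CPM in control and 24.2, 25.3 and 25.3 CPM in cKO at day 0. At day 3 it held 20.4, 26.9, 29.1 and 26.8 CPM in control and 26.6, 20.3, 20.9 and 21.3 CPM in cKO. The groups overlapped on both days. The log2 fold change was −0.05 at day 0 (95% interval −0.17 to 0.07, adjusted p 0.431) and −0.20 at day 3 (95% interval −0.5 to 0.11, adjusted p 0.259). The changes with day were 0.00 in control (95% interval −0.24 to 0.25, adjusted p 0.993) and −0.16 in cKO (95% interval −0.41 to 0.08, adjusted p 0.231), the latter called without day 3 cKO replicate 1 (−0.28, adjusted p 0.0357).

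The second question was how control and cKO cells changed over the 3 days in these genes. Day, BMP2, sequencing depth and count table changed together, so that their parts cannot be told apart, and both changes come from the same 14 libraries that gave the genotype effects. In control cells 1 of the 9 genes was called higher at day 3 (28.1% of 14909 genes tested) and 6 were called lower (28.8%). In cKO cells 1 was called higher (32.4%) and 5 lower (29.8%). The single gene that rose was Tet1 in control and Dnmt3l in cKO. The interaction was called higher for 2 of the 9, Dnmt3l and Uhrf2, against 9.94% of all genes, and lower for 3, Dnmt3a, Tet1 and Tet3, against 6.89%. Without the day 3 cKO library of replicate 4, 6 members were called in the interaction, and without day 0 control replicate 1, 3 were.

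**Figure D4:**
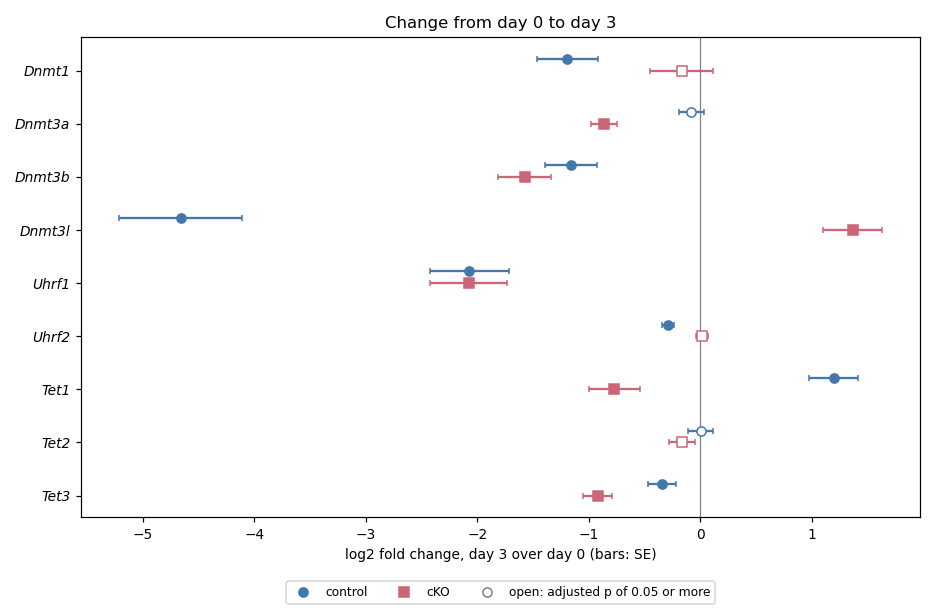
Log2 fold change from day 0 to day 3 with its standard error for each gene in control (blue circles) and cKO (red squares), where filled symbols passed an adjusted p of 0.05. The pairs of Dnmt3l and Tet1 lie on opposite sides of 0, while those of Uhrf1 nearly coincide.

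In cartilage the 5 members tested beside Dnmt1 were not called. Dnmt3a held 146, 126, 116 and 92.7 CPM in control and 141, 148, 133 and 127 CPM in cKO, with a log2 fold change of 0.20 (95% interval −0.08 to 0.48, adjusted p 0.392). Tet1 held 45.0, 32.4, 46.8 and 48.4 CPM in control and 42.8, 39.4, 28.6 and 22.4 CPM in cKO, with a log2 fold change of −0.40 (95% interval −0.84 to 0.04, adjusted p 0.281). This interval excludes the culture estimates of −1.08 and −3.03. The culture estimates have intervals too: that of day 0, −1.333 to −0.834, meets the cartilage interval, and that of day 3, −3.624 to −2.445, does not. Cartilage was measured by another method, and the difference itself was not tested. Tet3 held 168, 105, 169 and 80.3 CPM in control and 184, 138, 64.2 and 82.7 CPM in cKO, a wide and overlapping spread (log2 fold change −0.22, 95% interval −0.74 to 0.31, adjusted p 0.651). Uhrf2 held 54.8, 64.8, 63.3 and 55.6 CPM in control and 77.2, 59.5, 84.7 and 64.6 CPM in cKO (log2 fold change 0.27, 95% interval −0.05 to 0.59, adjusted p 0.312). Tet2 held 167, 121, 155 and 130 CPM in control and 143, 134, 133 and 138 CPM in cKO (log2 fold change −0.06, 95% interval −0.35 to 0.22, adjusted p 0.814). Dnmt3b held 2.75 to 6.83 CPM in control and 3.5 to 9.24 CPM in cKO and did not pass the filter.

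The genotype effect was also compared between the sexes, with 2 samples per sex and genotype. None of the 6 members that passed was called, by edgeR or DESeq2, with 2 at an unadjusted p under 0.05, and 1 of 9687 genes was called lower (0.0103%). The widest values, female effect less male effect, were −0.99 for Tet1 (95% interval −1.72 to −0.26, adjusted p 0.935) and −0.97 for Tet3 (95% interval −1.9 to −0.04, adjusted p 0.994). Their intervals, which are not adjusted for the number of genes, lay below 0.

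Partners of the maintenance machinery were read from a list of 10, of which 8 were tested in cultures. At day 0, 6 were called higher in cKO and 1 lower, where 33.0% of all genes were called higher and 31.6% lower, with a median log2 fold change of 0.49. The median of all genes lay between 0 and 0.02 in each comparison. Hells, a chromatin remodeller needed for methylation of repeats, was higher by 0.71 (SE 0.053, adjusted p 3.58e-06) and Lig1, which joins Okazaki fragments, by 0.68 (SE 0.0633, adjusted p 1.43e-05), both on the log2 scale. Zbtb24, a zinc finger gene linked to Hells through Cdca7, was lower at −0.22 (adjusted p 0.0152). At day 3 none of the 8 was called by edgeR or DESeq2 (0 at an unadjusted p under 0.05, median 0.02), and 2 were called by edgeR without cKO replicate 4. With day, 6 fell and 1 rose in control (median −0.77; 28.8% of all genes fell and 28.1% rose), and 7 fell and 1 rose in cKO (median −1.41; 29.8% and 32.4%). The riser was Zbtb24 in both (0.38 and 0.53, adjusted p 0.00531 and 0.000474), and Pclaf, a partner of PCNA, fell by 1.56 in control (adjusted p 0.00225) and by 1.85 in cKO (adjusted p 0.000538). Lig1 fell by 1.42 in control (adjusted p 0.000941) and Hells fell by 1.81 in cKO (adjusted p 0.00013). In cartilage none of the 6 tested was called by edgeR or DESeq2, with 2 at an unadjusted p under 0.05. The interaction was called for none of the 8 by either tool, with 1 at an unadjusted p under 0.05, and for 2 without day 3 cKO replicate 4.

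Genes of S phase and mitosis moved beside Uhrf1. Of 20 tested at day 0, 18 were called higher in cKO and none lower, against 33.0% and 31.6% of all genes, with a median of 0.40. The largest were Rrm2, a subunit of ribonucleotide reductase, at 0.68 (SE 0.0863, adjusted p 0.000106) and the mitotic kinase gene Plk1 at 0.56 (SE 0.0501, adjusted p 1.18e-05). With day, 17 fell and none rose in control (median −1.63) and 19 fell and none rose in cKO (median −1.9), where 28.8% and 29.8% of all genes fell. Mki67, a marker of dividing cells, fell by 2.25 in control (adjusted p 0.000119) and fell by 2.48 in cKO (adjusted p 4.87e-05), and Ccna2, cyclin A2, by 2.25 (adjusted p 0.000121) and 2.44 (adjusted p 5.34e-05).

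At day 3, where 25.5% of all genes were called higher and 22.6% lower, the cKO cells had 1 of the 20 called higher, Rrm2 at 1.87 (adjusted p 0.0016), and 3 lower, with Mcm2, part of the replicative helicase, at −0.86 (adjusted p 0.0326) and E2f1, an activator of S phase genes, at −0.60 (adjusted p 0.00554) leading. The median was 0.20. Without cKO replicate 4, 9 were called, 5 of them higher. The interaction was called lower for E2f1 (−0.51, adjusted p 0.0407), 1 of 20, against 6.89% of all genes, and it was called for 7 without that library. In cartilage Rrm2 alone of 17 tested was called, lower at −0.87 (adjusted p 0.003), where 3.04% of all genes were called lower. The summed level of the list was 1864, 1747 and 1705 CPM in control and 2310, 2213 and 2412 CPM in cKO at day 0. At day 3 it was 893.5, 590.4, 573.7 and 589.1 CPM in control and 640.6, 851.9, 814.6 and 475.4 CPM in cKO. Control replicate 1 and cKO replicate 4 were the highest and lowest of day 3 on this list, and they also held the highest control and the lowest level of Uhrf1. The part of cell division in the level of Uhrf1 was not tested.

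**Figure D5:**
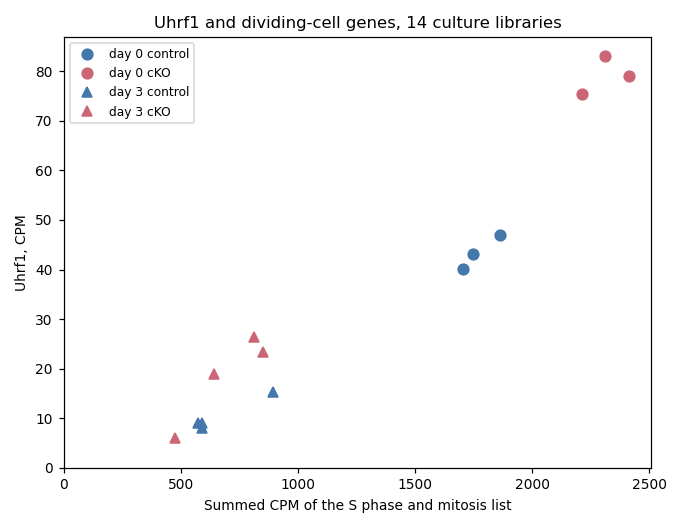
Uhrf1 in CPM against the summed CPM of 20 S phase and mitosis genes in the 14 culture libraries, circles for day 0 and triangles for day 3, blue for control and red for cKO. The 3 day 0 cKO libraries lie highest on both axes, and day 3 cKO replicate 4 (475.4 and 5.94 CPM) lies lowest on both.

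Genes of base removal and demethylation showed no common direction. Of 16 tested at day 0, 5 were called higher and 4 lower in cKO (median 0.01), against 33.0% and 31.6% of all genes. Tdg, the glycosylase that removes oxidised methylcytosine, was higher by 0.35 (SE 0.0294, adjusted p 7.27e-06) and Polb, the repair polymerase, by 0.28 (adjusted p 0.00174). The cytidine deaminase gene Apobec1 was lower at −1.15 (adjusted p 0.000314) and the DNA ligase gene Lig3 at −0.40 (adjusted p 1.56e-05). At day 3, 5 of 15 were higher and 2 lower (median 0.02), against 25.5% and 22.6% of all genes. Gadd45g, a stress-induced gene, was higher by 1.18 (SE 0.122, adjusted p 0.000135), and Apobec1 (−0.66, adjusted p 0.0225) and Xrcc1, a repair scaffold (−0.37, adjusted p 0.0291), were lower. Apobec2, a relative of Apobec1 known from muscle, was higher by 5.22 (adjusted p 0.00154), with 0 to 2 counts per control library, under the floor, and 11 to 103 per cKO library. It passed the day 3 filter through its cKO counts, and its fitted value depends on the prior count. The muscle list moved in the same libraries, at 1.58 to 2.1 CPM in control and 157.6 to 2107 CPM in cKO, and its part was not tested.

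With day, 4 of these genes rose and 6 fell in control, and 8 rose and 5 fell in cKO, with medians of −0.13 and 0.21. Of all genes 28.1% rose and 28.8% fell in control, and 32.4% rose and 29.8% fell in cKO. In control Apobec1 (1.57, adjusted p 1.7e-05) and the glycosylase gene Neil2 (0.75, adjusted p 0.0156) rose the most, and Parp1, the sensor of strand breaks, fell by 0.96 (adjusted p 4.72e-05) and Gadd45a by 0.86 (adjusted p 0.000574). In cKO Apobec2 (3.64, adjusted p 0.000517) and Apobec1 (2.03, adjusted p 2.83e-06) rose the most. Tdg fell there by 1.29 (adjusted p 2.46e-08) and Parp1 by 0.96 (adjusted p 4.3e-05). Apobec2, counted among the 8, entered the fit of the day changes and the interaction through its day 3 cKO counts, where it is high. It held 4 to 16 counts per cKO library at day 0 (0.09 to 0.38 CPM) and 11 to 103 at day 3 (0.63 to 5.37 CPM). The interaction was called for 6 of 15, with 4 up and 2 down, against 9.94% and 6.89% of all genes. Among those up were Apobec2 (4.9, adjusted p 0.0159, with the same dependence on 5 counts in all in the day 3 controls) and Gadd45g (0.97, adjusted p 0.000977). Those down were Xrcc1 (−0.55, adjusted p 0.0251) and Tdg (−0.44, adjusted p 0.0102). In cartilage 1 of 7 tested was called, Gadd45b at −0.65 (adjusted p 0.0278), where 3.04% of all genes were called lower.

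Cofactors and regulators of the TET enzymes were called lower in cKO at day 3 in 4 of 6 cases, with none higher, against 22.6% and 25.5% of all genes, and the median was −0.23. Ogt, which binds TET proteins and attaches N-acetylglucosamine, was lower at −0.93 at day 0 (SE 0.0569, adjusted p 1.12e-06) and at −1.2 at day 3 (SE 0.0883, adjusted p 2.68e-05). Idh1, which makes the cosubstrate 2-oxoglutarate, was lower at −1.06 at day 0 (SE 0.0369, adjusted p 4.35e-08) and Idh2, its mitochondrial form, at −0.77 at day 3 (adjusted p 0.0306). At day 0, 3 of 7 were called higher and 4 lower (median −0.14), against 33.0% and 31.6% of all genes. Cxxc4, which binds unmethylated CpG and lowers Tet2 protein, was higher by 1.19 there (adjusted p 0.00865) from 7 to 12 counts per control library and 22 to 23 per cKO library. It passed the day 0 filter through its cKO counts, where it is high. Zscan4c, from a family of near-identical copies among which reads cannot be assigned with certainty, had no count in any control culture and 355 counts over the day 0 cKO libraries, at least 127-fold higher against a floor of 3 counts over the group. Zscan4c, also among those called higher at day 0, passed the day 0 filter through its cKO counts alone. It had 9 counts over the day 3 cKO libraries, and its fall with day in cKO was called (adjusted p 0.0011). It entered that test too through its day 0 cKO counts, where it is high.

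With day, 28.1% of all genes rose and 28.8% fell in control, and 32.4% rose and 29.8% fell in cKO. Of the 7 TET cofactors and regulators, 3 rose and 1 fell in control (median 0.29), and 2 rose and 2 fell in cKO (median 0.00). Cxxc4 (0.96, adjusted p 0.0326) and its paralog Cxxc5 (0.80, adjusted p 6.05e-06) were among those that rose in control. The call of Cxxc4 rests on few counts, 7 to 12 per control library at day 0 and 4 to 9 at day 3. Its control levels overlapped between the days, at 0.15 to 0.28 CPM and 0.24 to 0.59 CPM. The filter of that fit also took in the cKO libraries, which held 22 to 23 counts of Cxxc4 at day 0. DESeq2 called 3 genes of this list in the control day change. The channel gene Vdac1 fell in control by 0.26 (adjusted p 0.00079). In cKO Idh1 rose by 0.67 (SE 0.073, adjusted p 6.76e-06) and Cxxc5 by 0.56 (adjusted p 9.92e-05), while Vdac1 fell by 0.32 (adjusted p 0.000132). In the interaction 1 of the 7 was called higher, Idh1 at 0.77 (adjusted p 0.000461), and 0 lower, against 9.94% and 6.89% of all genes. In cartilage Vdac1 was called lower at −0.82 (adjusted p 0.00388), 1 of 5 tested, where 3.04% of all genes were called lower.

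Genes of the methyl donor cycle, which makes S-adenosylmethionine, were called lower in cKO in 4 of 9 cases at day 0 and 4 of 9 at day 3, with 1 and 0 higher and medians of −0.04 and −0.26. Of all genes 31.6% were called lower at day 0 and 22.6% at day 3, and 33.0% and 25.5% higher. Gnmt, which uses up S-adenosylmethionine in the methylation of glycine, was lower at −1.7 at day 0 (SE 0.305, adjusted p 0.000964). It held 32 to 47 counts per control library there and 10 to 16 per cKO library. At day 3 it was lower at −3.17 (SE 0.566, adjusted p 0.0021), with 11 to 30 counts per control and 1 to 5 per cKO library. Gnmt passed the day 3 filter through its control counts, where it is high. Mtr, methionine synthase, was lower at −0.73 (adjusted p 1.96e-06) and −0.37 (adjusted p 0.00628). The gene called higher at day 0 was Ahcyl1 at 0.19 (adjusted p 0.00994). With day, Mat2b, a regulator of S-adenosylmethionine synthesis, rose by 0.28 in control (adjusted p 0.000701) and 0.28 in cKO (adjusted p 0.000527), the 1 riser in each. In control 4 of 9 fell and in cKO 6 of 9 (medians −0.18 and −0.34). Of all genes 28.1% rose and 28.8% fell in control, and 32.4% rose and 29.8% fell in cKO. Ahcy, which clears the methylation product S-adenosylhomocysteine, fell by 1.14 (adjusted p 6.37e-06) and 1.24 (adjusted p 2.84e-06). Mtr fell by 0.77 in control (adjusted p 3.53e-06) and Mtrr, its reductase, by 0.74 in cKO (adjusted p 0.000293). In cartilage none of the 6 tested was called by edgeR or DESeq2, with 1 at an unadjusted p under 0.05.

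The genes whose log2 CPM ran most like that of a member over the 14 culture libraries, among 14909 that passed the filter, were ranked by Pearson's r as a description. The libraries of a group share genotype, day and depth, so such r also follow the group means. For Uhrf1 they were Lig1 (0.995), Bub1b (0.994) and Melk (0.993), and for Dnmt1 Rabl6 (0.973), Ssr1 (0.969) and Cdc23 (0.968). For Tet1 they were Pdzrn3 (0.986), Snx22 (0.982) and Hsd17b1 (0.981). For Dnmt3l they were Mrvi1 (0.989), Cnn1 (0.986) and Atg9b (0.983).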

How the data were processed

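For cultures the authors deposited estimated counts, with a table for each day, and whole-number counts per gene for cartilage, with a second table of estimated counts, per the file headers. Estimated counts were rounded. Culture libraries were stranded and cartilage libraries were 3′ barcoded (BRB-seq), per the labels' protocols. For cartilage the submitters' processing notes name GRCm38, Trim Galore 0.6.7, HISAT2 2.2.1, featureCounts 2.0.1, UMI-tools 1.1.1 and DESeq2 1.34.0, with no role. For cultures the tools are not given in the sources used here, and nor is collapsing of molecular identifiers. No per-sample column went unused.

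Tests used edgeR 4.0.16 in R 4.3.3 (quasi-likelihood, TMM, filterByExpr at 10 and 15 counts) on all genes. They were also run on simulated data with far fewer changed genes than were called in the cultures. That run cannot show how the tests and the scaling do where so many genes change. Genotype effects used each setting's own samples, with sex as a term in cartilage; changes with day and the interaction used all 14 cultures. SE is the absolute log2 fold change over the square root of F. Alternatives were DESeq2 1.42.0, other scaling and filters, and single replicates left out. GENCODE M21 matched 34582 of 34866 culture identifiers. Members and lists were chosen with earlier results of these data known. All 9 members are named in every comparison, and from each list up to 2 called genes per direction. Replicates are labelled biological, but the animals behind them are not named, and p-values measure the spread between these samples. No replicate pair was as close as counting noise: chi-square per degree of freedom was 3.53 or more.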

Additional observations from a re-analysis of the deposited data

Results flagged for a closer look

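For 5 of the 9 genes the genotype effect differed between the days by a test of that difference (edgeR's interaction term, day 3 less day 0, log2 scale): Dnmt3a at −0.78 (adjusted p 0.00625), Dnmt3l at 6.02 (adjusted p 9.16e-05), Uhrf2 at 0.30 (adjusted p 0.0174), Tet1 at −1.97 (adjusted p 0.00141) and Tet3 at −0.58 (adjusted p 0.0469). The call of Tet3 was lost in 15 of 20 alternative fits and that of Uhrf2 in 2 of 20. The value for Dnmt3l depends on the prior count, since its day 3 controls held 1 count in all. Dnmt3l passed the filter of that fit through its cKO counts.

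Among 36 sets of 4 libraries, 5 held a library far from the other 3. Chance marks about 1 in 20 sets of continuous values. That rate does not hold for the Dnmt3l sets named next, where any count beside 3 libraries at 0 is marked. Dnmt3l in control cartilage was 0 in all 4 libraries and could not be marked. Dnmt3l stood at 0.0543 CPM in control replicate 2 at day 3 (1 count, against 0 in the other 3) and at 1.75 CPM in cKO cartilage replicate 2 (2 counts, against 0). Uhrf1 stood at 15.4 CPM in day 3 control replicate 1, above 8.04 to 9.07 CPM in the other 3. Tet1 stood at 16.6 CPM in the same library, below 26.1 to 26.4 CPM in the others. Tet2 stood at 26.6 CPM in day 3 cKO replicate 1, above 20.3 to 21.3 CPM.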

How the results depend on the processing

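Of 989 fits of a member under an alternative, 922 kept the direction and the side of the threshold, 26 lost a call, 5 gained one and 36 turned the sign of a value that was not called. With all 14 cultures in the fit, 6260 genes were called at day 0, against 10023. In cartilage DESeq2 called 357 and no expression filter 1044, against 544, and leaving out 1 library gave 362 (without cKO replicate 4) to 630. The interaction called 1591 (without day 0 control replicate 2) to 4051 genes (without day 3 cKO replicate 4), against 2509, and 3 to 6 members, against 5. Between the sexes 1 gene was called, 33 with no filter, 2 from estimated counts and 1 to 6 with 1 library left out. Scaling by totals alone moved the share of calls that were higher from 51.1 to 63.6% at day 0, from 50.9 to 64.9% in cartilage and from 49.4 to 61.5% for the control day change, where the median of all genes moved from 0 to 0.12; in the cKO day change it moved from 0.02 to 0.11. The causes were not tested.

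With totals alone Dnmt3a stood at 0.104 and Tet2 at 0.058 at day 0, Dnmt3a at 0.045 in the control day change and Tet2 at 0.055 between the sexes. With no filter Tet2 was −0.009 in the control day change, and from estimated counts Dnmt1 was −0.07 between the sexes. With 1 library left out, the values whose sign turned ran as follows. They ran at day 0 from −0.054 to 0.022 for Dnmt3a, and in cartilage from −0.154 to 0.029 for Tet2 and −0.448 to 0.091 for Tet3. In the control day change they ran from −0.160 to 0.007 for Dnmt3a and −0.058 to 0.099 for Tet2, in the cKO day change from −0.395 to 0.084 for Dnmt1 and −0.024 to 0.018 for Uhrf2, and in the interaction from −0.232 to 0.294 for Uhrf1. Between the sexes they ran from −0.005 to 0.502 for Dnmt1, −0.073 to 0.334 for Uhrf2 and −0.270 to 0.205 for Tet2.

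Same-numbered samples deviated together with r from −0.133 to 0.265 over genes, so the numbers were not taken to pair samples. A replicate block on them called 9724 genes at day 0, 5391 at day 3, 576 in cartilage, 8241 in the control and 9011 in the cKO day change and 2490 in the interaction, and it changed no member's call in these 6 comparisons. No paired analysis was made between the sexes, whose numbers are not shared. The partner lists without day 3 cKO replicate 4 were chosen after seeing the data.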
